A study of Mus musculus with 6 samples.

Results

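Integrins are the transmembrane receptors, each an alpha chain paired with a beta chain, that hold cells to the extracellular matrix. Talins and kindlins switch them on from inside the cell, vinculin, tensins and zyxin couple them to actin, the complex of integrin-linked kinase (ILK), PINCH (Lims genes) and parvin strengthens that link, and paxillin, focal adhesion kinase and p130Cas relay signals. In the vessel wall this machinery carries tension between contractile cells and their matrix. The 36 genes described here are 20 integrin subunits (12 alpha and 8 beta chains) and 16 focal adhesion proteins, taken by name from the 25683 genes of the deposited table. They were chosen with earlier results of these data known, so their shares beside those of all genes are descriptive. Of them, 33 had enough reads to be tested, among 12660 tested genes. RNA came from 6 libraries of cultured mouse aortic cells, a primary line that the submitters labelled vascular smooth muscle. Nt5e knock-out cells gave 3 libraries (KO 1 to KO 3) and Nt5e wild-type cells gave 3 (WT 4 to WT 6). Nt5e encodes CD73, the ectoenzyme that makes adenosine from AMP. All cells of both genotypes had been moved from 10% to 0.5% serum for 48 h, and the series title sets the comparison beside adenosine signalling, TGF-beta 2, elastin and contraction. How the KO was made is not given in the sources used here, nor are the animals or cultures behind the libraries of a genotype, so each p-value reflects only how these samples vary, and that spread may be technical.

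The libraries held 19919095 to 23669252 exon reads. Nt5e was at 0.952, 0.0471 and 0.106 CPM (reads per 1000000, scaled by the trimmed mean of M values) in KO 1, KO 2 and KO 3, against 27.4, 28.3 and 22.5 CPM in WT 4, WT 5 and WT 6 (-6.06 ± 0.82 SE on the log2 scale, adjusted p = 0.00577). KO 2 and KO 3 were nearly identical, as were WT 4 and WT 6, with a chi-square per degree of freedom of 3.24 and 3.33 against 23.2 to 282 for every other pair. That is above counting noise, and each was kept as a sample, though it does not show that they are separate cultures. KO 1 stood apart from KO 2 and KO 3 (186 and 184 on the same measure). The last number in the library titles, whose meaning is not given, is 1 for KO 1 and WT 5 and 2 for the other 4 libraries, so it runs with this split. The number after p in the titles is 11 for KO 1, WT 4 and WT 5, and 12 for KO 2, KO 3 and WT 6. The titles of KO 1 and KO 2 begin with KO2 and that of KO 3 with KO5. Those of WT 5 and WT 6 begin with WT11 and that of WT 4 with WT10. Neither nearly identical pair thus shares a title stem, and the meaning of these parts is not given either. Of 12 smooth muscle markers, Acta2, Smtn, Tpm2, Mylk and Tagln were each above 10 CPM in every library, while 3 that define the type were at few reads. Des had 3, 0 and 1 reads in the KO and 0, 2 and 0 in the WT libraries, Myocd 4, 1 and 0 in the KO and 1, 0 and 1 in the WT libraries, and Myh11 5, 54 and 67 reads in KO 1, KO 2 and KO 3 and 3, 3 and 1 in WT 4, WT 5 and WT 6. Summed over 14 epithelial and mesothelial markers, the level was 204, 88.8 and 82.9 CPM in the KO libraries and 3151, 3091 and 3242 CPM in the WT libraries. In bulk RNA, fewer cells of a type and less RNA per cell cannot be told apart.

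The KO cells carried more mRNA for many proteins of the intracellular side of the adhesion and less for several receptor chains. Of the 33 tested genes, 18 passed the genotype test (edgeR's quasi-likelihood F, adjusted p under 0.05 by Benjamini-Hochberg over all genes), 12 higher and 6 lower, whereas over all tested genes 27.8% passed, 14.1% higher and 13.7% lower. Of all genes that passed, 50.7% were higher, and 40.1% with scaling by total counts, where 16 of the 33 passed. Among focal adhesion proteins, 10 of the 15 tested rose and 0 fell, also 0 in DESeq2, in limma-voom and at an unadjusted p under 0.05, where 13 rose. Among integrin subunits, 2 of the 18 tested rose and 6 fell. The median log2 fold change was 0.64 over the focal adhesion proteins and -1.04 over the integrin subunits, against 0.02 over all tested genes. By library, the median log2 difference from the WT mean was 0.55, 0.76 and 0.78 for the focal adhesion proteins and -0.70, -0.78 and -0.94 for the integrin subunits in KO 1, KO 2 and KO 3. All 3 KO values lay above all 3 WT values for 15 genes and below them for 10, a total of 25 of 33, where 49.7% of all tested genes had no overlap (24.3% above and 25.5% below).

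**Figure D1:**
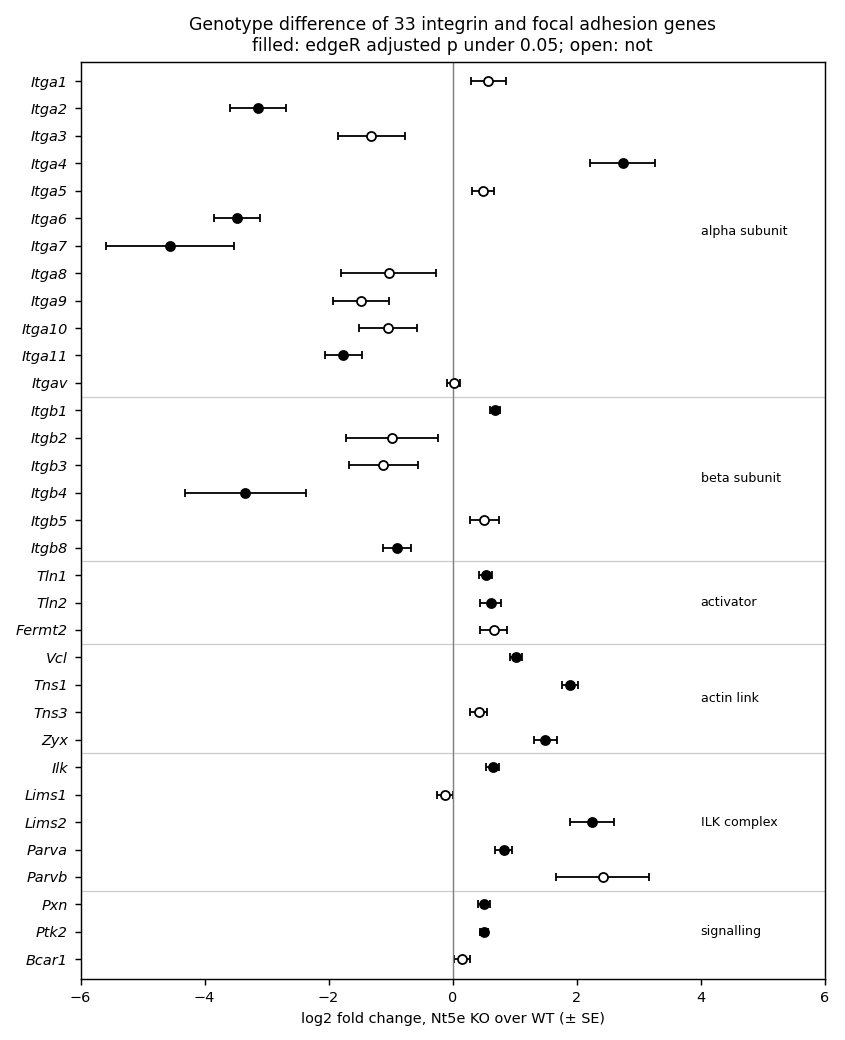
Log2 fold change of exon reads, KO over WT, with its standard error, for 33 genes in 6 groups by role. Filled points passed an adjusted p of 0.05, which 18 did, and every filled point among the focal adhesion proteins lies right of 0.

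The count rested on particular libraries. It was 27 of 33 without KO 1, where 66.2% of all genes passed, and 14 and 13 without KO 2 and KO 3, where 12.5% and 12.8% of all genes passed. It was 9, 12 and 11 without WT 4, WT 5 and WT 6, where 1120, 1671 and 1386 genes passed in all. With the last title number as a covariate it was 23, 14 higher and 9 lower, where 35.6% of all genes passed. Within each value of that number the 18 genes had the same direction, since for all 18 the KO and WT values did not overlap. With each nearly identical pair summed, leaving 2 samples a genotype, 0 of 33 passed (edgeR, lowest adjusted p = 0.0651; no other tool was run on these sums), beside 17 of all 13041 genes. At an unadjusted p under 0.05, 15 of the 33 differed there, 11 higher and 4 lower, against 20.2% of all genes. The 18 genes kept their direction in that setting, which follows from the lack of overlap and is no further check. For 8 of the 18, Itga2, Itga6, Itga11, Itgb1, Vcl, Tns1, Zyx and Ptk2, the summed pairs were the only alternative that ended the call.

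Of the 4 genes whose proteins couple integrins to actin, 3 rose. Tns1 (ENSMUSG00000055322, chromosome 1, 73910231 to 74124449, minus strand, GRCm38) encodes tensin 1, which binds integrin beta tails and actin. It was at 939, 737 and 739 CPM in KO 1, KO 2 and KO 3, against 209, 210.2 and 233 CPM in WT 4, WT 5 and WT 6. The KO values all stood far above the WT values, with KO 1 the highest. The log2 fold change was 1.89 ± 0.13 SE, a 3.70-fold rise (adjusted p = 0.000816). Zyx (chromosome 6, 42349630 to 42360213, plus strand), the gene of the tension-sensitive LIM protein zyxin, was at 753, 931 and 883 CPM in the KO, against 329, 231 and 354 CPM in the WT. The genotypes were far apart, and WT 5 was the lowest of its group. Zyx rose by 1.49 ± 0.19 SE on the log2 scale, or 2.81-fold (adjusted p = 0.00475). Tns3, tensin 3, had no overlap either, at 786, 589 and 592 CPM in the KO libraries and 485, 458 and 529 CPM in the WT libraries, but did not pass (0.42 ± 0.14 SE, adjusted p = 0.0766). It passed without KO 1 (0.26, adjusted p = 0.0126), in DESeq2 and when rescaled by chromosome, where a chromosome's own median was set to that of the library (0.61, adjusted p = 0.0232).

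Vinculin, which talin recruits as it is stretched, was even across libraries of a genotype. Vcl (ENSMUSG00000021823, chromosome 14, 20929398 to 21033676, plus strand) was at 820.5, 859.7 and 830.0 CPM in KO 1, KO 2 and KO 3, against 408, 374 and 455 CPM in WT 4, WT 5 and WT 6. Its log2 fold change was 1.02 ± 0.10 SE, or 2.03-fold (adjusted p = 0.00225). Vcl and Fermt2 lie on chromosome 14, whose 427 tested genes had a median log2 fold change of 0.40 against 0.02 over all genes. Rescaled by chromosome, Vcl was at 0.64 (adjusted p = 0.00638). Only 61.9% of its exon reads were uniquely placed, the lowest share of the 33 genes, and 25.5% of its exon bases overlap Ap3m1 on the opposite strand. On unique reads the rise was 0.95 (adjusted p = 0.00255), and Ap3m1 was at 91.9, 91.2 and 86.8 CPM in the KO and 73.1, 76.1 and 75.9 CPM in the WT (0.26 ± 0.064 SE, adjusted p = 0.0314). The genes outside the 36 whose log2 CPM followed Vcl most closely over the 6 libraries were Atoh8, a transcription factor, Sucla2, a mitochondrial enzyme subunit, and Igf1r, the receptor of insulin-like growth factor 1 (Pearson r = 0.999, 0.999 and 0.999). They were picked for that likeness, and it mostly follows the genotype split.

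The 250 bases upstream of the transcription start (RefSeq, GRCm38) were searched on both strands for 4 motifs. These were the CArG box of serum response factor by name, the TEAD motif GGAATG, the AP-1 motif TGANTCA and the GC box GGGCGG. Whether a motif has a part in the rises was not tested. Shown are Vcl and Itgb1, which rose, held a CArG box or TEAD match, and whose stretch ends at the gene start of the deposited table. Capitals mark the CArG box and TEAD matches, which do not overlap, and both sequences read along the plus strand.
Vcl, chr14:20929148-20929397: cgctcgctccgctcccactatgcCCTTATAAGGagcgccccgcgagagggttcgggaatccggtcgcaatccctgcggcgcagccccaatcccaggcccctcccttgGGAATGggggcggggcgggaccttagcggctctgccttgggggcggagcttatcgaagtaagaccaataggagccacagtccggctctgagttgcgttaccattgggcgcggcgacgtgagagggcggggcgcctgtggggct
Itgb1, chr8:128685404-128685653: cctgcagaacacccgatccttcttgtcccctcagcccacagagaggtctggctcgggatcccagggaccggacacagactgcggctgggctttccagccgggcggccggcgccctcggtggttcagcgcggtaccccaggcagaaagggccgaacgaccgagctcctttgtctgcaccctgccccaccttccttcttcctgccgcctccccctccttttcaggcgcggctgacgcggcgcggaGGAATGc
The Vcl stretch holds a CArG box 227 to 218 bases and a TEAD match 143 to 138 bases before the start, and the Itgb1 stretch a TEAD match 7 to 2 bases before it. RefSeq windows were found for 26 of the 36 genes (32 windows). The CArG box was in 9.38% of these windows (Vcl, Fermt2 and Itgb6, of which only Vcl passed the genotype test), against 1.47% of all 32851 windows. The TEAD motif was in 9.38% (Vcl, Itgb1 and Itga10) against 12.6%, the AP-1 motif in 3.12% (Zyx) against 6.75%, and the GC box in 53.1% against 32.7%. A match describes letters in this stretch and is not a binding site by itself.

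**Figure D2:**
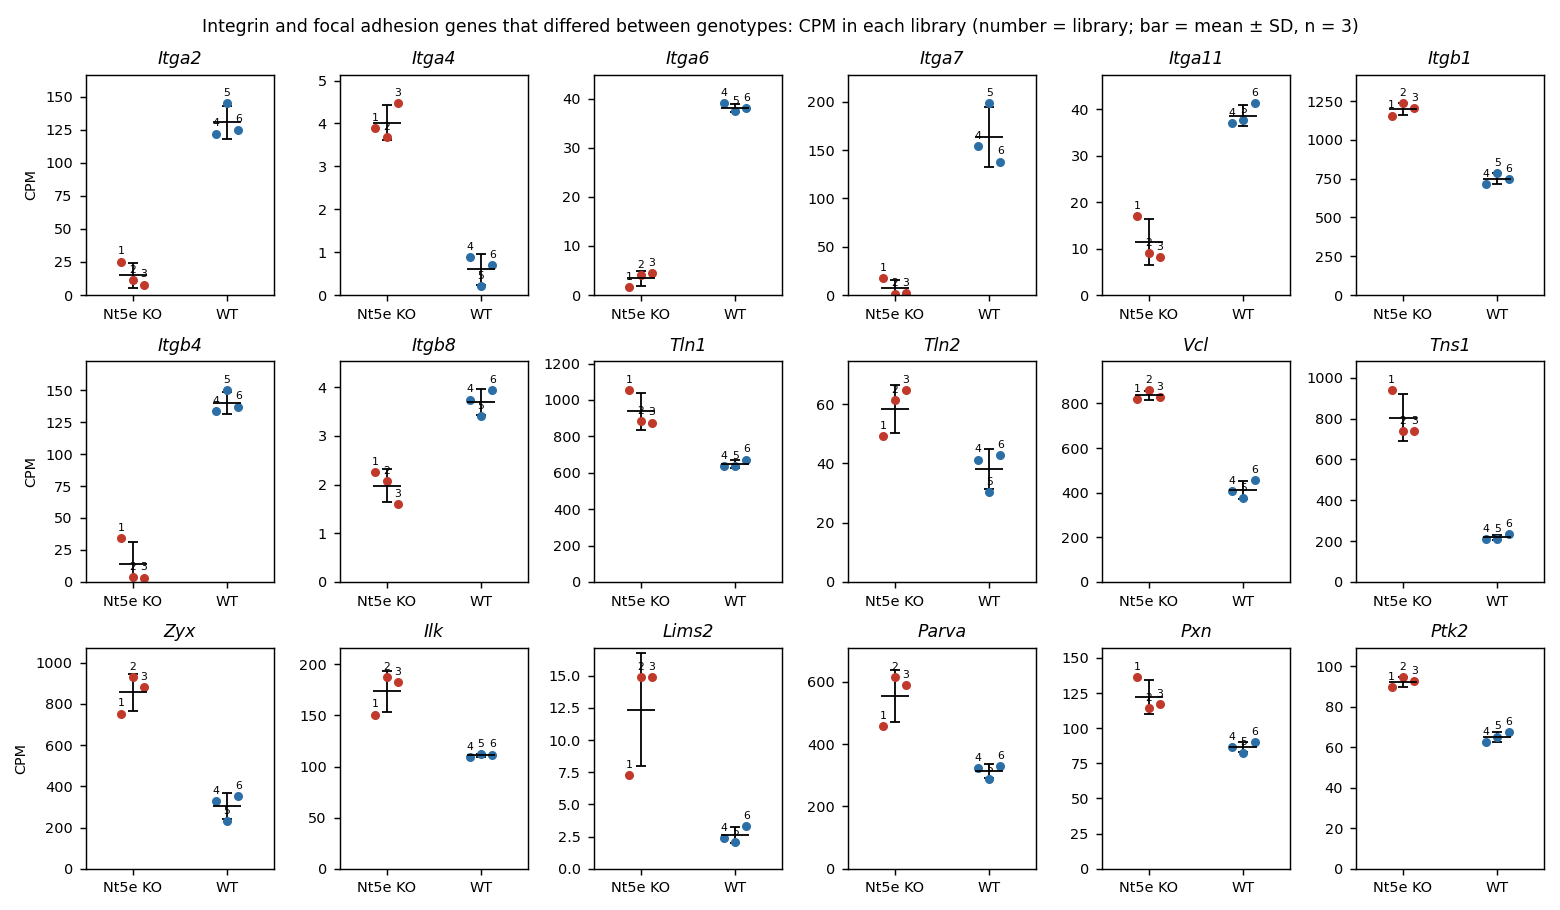
CPM in each library for the 18 genes past the test, KO left and WT right. Points carry the library number and bars give the mean and SD of 3 libraries. KO 1 lies between the other KO libraries and the WT for 5 of the 6 genes that fell (all but Itga6) and 8 of the 12 that rose (all but Itga4, Tln1, Tns1 and Pxn). For Vcl, Ptk2 and Itgb1 it is close to the other KO libraries, and the matching share over all genes is not given.

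Of the 3 integrin activators tested, 2 rose. Tln1 (chromosome 4, 43531519 to 43562691, minus strand), talin 1, which binds beta tails and pulls integrins into their active form, was at 1054, 884 and 875 CPM in the KO, against 637, 637 and 672 CPM in the WT. Every KO value was above every WT value, and the log2 fold change was 0.53 ± 0.10 SE (adjusted p = 0.0158). Tln2, the second talin gene, was far less abundant, at 49.1, 61.3 and 64.7 CPM in the KO and 41.3, 30.4 and 42.9 CPM in the WT (0.61 ± 0.17 SE, adjusted p = 0.044). Fermt2, kindlin 2, the talin partner of most adherent cells, was at 102, 173 and 170.0 CPM in KO 1, KO 2 and KO 3, against 94.2, 85.1 and 102 CPM in WT 4, WT 5 and WT 6. KO 1 lay just above the WT range, and the difference did not pass (0.66 ± 0.22 SE, adjusted p = 0.0671), nor did it when rescaled by chromosome (0.28, adjusted p = 0.343). It passed without KO 1 (0.87, adjusted p = 0.00012). Fermt1, the epithelial kindlin, had 0, 0 and 0 exon reads in KO 1, KO 2 and KO 3 and 1, 4 and 0 in WT 4, WT 5 and WT 6, too few for a test. The call of Tln1 ended without WT 4, WT 5 or WT 6 (adjusted p up to 0.0839), and that of Tln2 without any library other than KO 1 (up to 0.131).

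In the ILK complex, the kinase-like scaffold, 1 of 2 PINCH genes and 1 of 2 parvins rose. Ilk (chromosome 7, 105736592 to 105742925, plus strand) was at 151, 188 and 183 CPM in the KO libraries, against 109.5, 112 and 112 CPM in the WT libraries, which were almost level. Its log2 fold change was 0.64 ± 0.10 SE (adjusted p = 0.00835). Since 89.7% of its exon bases overlap Rrp8 or Taf10 on the opposite strand, its reads are uncertain without a stated strand setting. Rrp8 itself rose by 0.31 ± 0.086 SE on the log2 scale (adjusted p = 0.0465), and Taf10 was at -0.28 ± 0.11 SE (adjusted p = 0.113). On unique reads Ilk was at 0.63 (adjusted p = 0.0102). Parva, alpha-parvin, which links ILK to actin, was at 458, 615 and 590.2 CPM in the KO, against 323, 289 and 329 CPM in the WT (0.82 ± 0.14 SE, adjusted p = 0.00988). The PINCH genes differed in level and in change. Lims1 was at 172, 237 and 229.9 CPM in the KO and 231, 229 and 236 CPM in the WT, with KO 1 well below the other 5 libraries (-0.12 ± 0.13 SE, adjusted p = 0.523). Lims2 was scarce but rose, at 7.27, 14.9 and 14.9 CPM in KO 1, KO 2 and KO 3, against 2.41, 2.10 and 3.34 CPM in WT 4, WT 5 and WT 6 (2.24 ± 0.35 SE, 4.72-fold, adjusted p = 0.00876). Parvb, beta-parvin, was at 1.39, 9.66 and 9.26 CPM in the KO and 0.981, 1.73 and 1.07 CPM in the WT, so KO 1 lay within the WT range and KO 2 and KO 3 far above it. It did not pass (2.42 ± 0.75 SE, adjusted p = 0.0592) but did without KO 1 (2.89, adjusted p = 0.00012). The calls of Ilk, Lims2 and Parva ended without WT 4 (adjusted p = 0.0522, 0.0527 and 0.0531).

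Of the signalling scaffolds, Ptk2, focal adhesion kinase, was at 89.9, 94.8 and 92.9 CPM in the KO, against 62.6, 65.4 and 67.7 CPM in the WT. Both groups were tight, and the rise was 0.50 ± 0.067 SE on the log2 scale, or 1.42-fold (adjusted p = 0.00553). Pxn, paxillin, a docking protein for this kinase, was at 136, 114 and 117 CPM in the KO and 86.5, 82.7 and 90.0 CPM in the WT (0.50 ± 0.093 SE, adjusted p = 0.0138). Its call ended without WT 4, WT 5 or WT 6 (adjusted p up to 0.0698). Bcar1, which encodes p130Cas, a substrate of Src, overlapped between genotypes, at 107, 98.8 and 95.7 CPM in the KO and 83.2, 108 and 80.9 CPM in the WT (0.15 ± 0.13 SE, adjusted p = 0.435). Without WT 5 it was at 0.29, and without WT 6 at 0.068. Beside these rises, 12 smooth muscle markers summed to 279, 789.8 and 769 CPM in KO 1, KO 2 and KO 3, against 239, 244 and 292 CPM in WT 4, WT 5 and WT 6. The 6 pericyte markers summed to 386, 1007 and 1051 CPM in the KO and 226, 243 and 231 CPM in the WT. Of the smooth muscle sum, Acta2 gave 73.8, 546 and 525 CPM in the KO and 69.2, 51.9 and 101 CPM in the WT libraries, and most of the pericyte sum was Pdgfrb, at 311, 951 and 995 CPM in the KO and 180.2, 192 and 182 CPM in the WT libraries. In the smooth muscle list, 1 gene rose and 1 fell of 9 tested. The rise was Smtn (0.55 ± 0.13 SE, adjusted p = 0.0296) and the fall the scarce Cnn1 (-2.45 ± 0.55 SE, adjusted p = 0.0246). Acta2 did not pass (2.36 ± 0.75 SE, adjusted p = 0.0633). In the pericyte list 3 rose and 1 fell of 5. Fibroblast markers summed to 3353, 3648 and 3732 CPM in the KO and 2952, 2738 and 2824 CPM in the WT (3 of 8 rose). Their part in the rises was not tested.

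**Figure D3:**
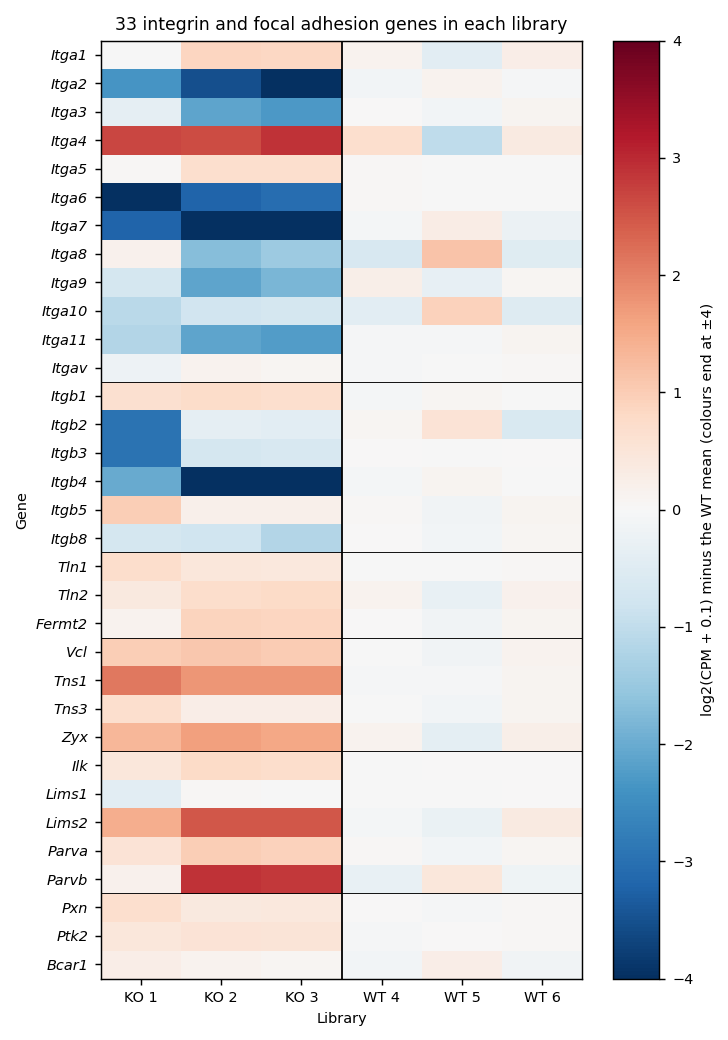
Log2(CPM + 0.1) of the 33 tested genes in each library minus the mean of the 3 WT libraries, KO left. Red is above and blue below the WT mean. The focal adhesion proteins in the lower part are red or pale in the KO, while Itga2, Itga6, Itga7 and Itgb4 are deep blue.

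Of the 4 laminin-receptor chains, 3 fell. Itga7 (ENSMUSG00000025348, chromosome 10, 128933818 to 128958282, plus strand), the laminin-binding alpha chain known from muscle, was at 17.4, 1.37 and 1.86 CPM in KO 1, KO 2 and KO 3, against 154, 198 and 138 CPM in WT 4, WT 5 and WT 6. KO 1, the highest KO library, stood at 10.6% of the WT mean, and KO 2 and KO 3 at 0.837% and 1.14%. The log2 fold change was -4.56 ± 1.03 SE, or 23.5-fold lower (adjusted p = 0.0246). Itga6 (chromosome 2, 71745616 to 71858416, plus strand), another laminin-binding chain, was at 1.69, 4.10 and 4.52 CPM in the KO, against 39.1, 37.4 and 38.1 CPM in the WT. Here KO 1 was the lowest of all (-3.48 ± 0.36 SE, 11.1-fold lower, adjusted p = 0.00296). Itgb4 (chromosome 11, 115974709 to 116008412, plus strand) encodes the beta chain that pairs with alpha 6 in epithelial hemidesmosomes. It was at 34.3, 3.53 and 3.40 CPM in the KO, against 133, 150.0 and 137 CPM in the WT, with KO 1 far above KO 2 and KO 3 but below every WT library (-3.34 ± 0.97 SE, adjusted p = 0.0499). Itga3, the third laminin-binding chain, was at 137, 40.5 and 35.3 CPM in KO 1, KO 2 and KO 3, against 178, 162 and 188 CPM in WT 4, WT 5 and WT 6. The groups did not overlap, but KO 1 was close to the WT and the test was not passed (-1.31 ± 0.54 SE, adjusted p = 0.122). It passed without KO 1 (-2.22, adjusted p = 6.53e-06), where Itga7 was at -6.67 and Itgb4 at -5.34. The calls of Itga7 and Itgb4 ended without any library other than KO 1 (adjusted p up to 0.0793 and 0.127), and that of Itgb4 also with total counts, without a filter, with a filter of 50 reads in 3 libraries and rescaled by chromosome.

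Of the 4 collagen-binding chains, 2 fell and 2 did not pass. Itga2 (chromosome 13, 114833081 to 114932100, minus strand), an epithelial and platelet collagen receptor, was at 25.3, 11.2 and 7.87 CPM in the KO, against 122, 145 and 125 CPM in the WT. The KO level was 8.80-fold lower (-3.14 ± 0.45 SE, adjusted p = 0.00665). Itga11, the fibroblast receptor of fibrillar collagen, had 393, 190 and 152 reads in the KO, against 831, 915 and 891 reads in the WT (-1.76 ± 0.30 SE, 3.40-fold lower, adjusted p = 0.0106). Itga1, the collagen receptor typical of smooth muscle, was at 63.2, 115 and 114 CPM in KO 1, KO 2 and KO 3, against 71.0, 48.1 and 76.5 CPM in WT 4, WT 5 and WT 6. KO 1 lay within the WT range and KO 2 and KO 3 above it (0.58 ± 0.29 SE, adjusted p = 0.18). Without KO 1 the difference passed (0.80, adjusted p = 0.00715). Itga10, a cartilage collagen receptor, was scarce and lower in each KO sample without passing, at 1.34, 1.70 and 1.76 CPM against 2.18, 5.63 and 2.04 CPM in the WT (-1.04 ± 0.47 SE, adjusted p = 0.146). WT 5 was the highest, and without it the difference was -0.40, adjusted p = 0.393. It shares 33.5% of its exon bases with Gm42957, and 76.7% of its reads were unique.

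Beside the lower laminin and collagen chains, all 10 tested epithelial and mesothelial markers fell by edgeR, among 14 listed. Msln, mesothelin, was at 44.0, 0.990 and 1.38 CPM in KO 1, KO 2 and KO 3, against 773, 808 and 778 CPM in WT 4, WT 5 and WT 6. Lrrn4, a mesothelial surface gene, was at 52.1, 13.7 and 12.6 CPM in the KO and 650.5, 605 and 688 CPM in the WT, and Upk1b, a uroplakin, at 41.9, 9.99 and 7.50 CPM in the KO and 648, 633 and 658 CPM in the WT. For these 3 genes KO 1 lay between the other KO libraries and the WT libraries. Krt8 and Krt18 had 0 reads in the KO libraries, against 15, 17 and 11 and 6, 6 and 9 in the WT libraries, and Epcam had 1, 0 and 0 reads there and 3, 1 and 4 in the WT. The part of these markers in the integrin differences was not tested.

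The alpha v, alpha 5 and alpha 8 chains bind the RGD sequence of fibronectin and vitronectin, and of these and the beta partners of alpha v other than Itgb1, only Itgb8 passed. Itgav, the common vitronectin receptor chain, was at 219.5, 279 and 268 CPM in the KO and 246, 250.4 and 261 CPM in the WT, with overlapping ranges (0.015 ± 0.11 SE, adjusted p = 0.925). Itga5, of the fibronectin receptor, was at 55.6, 86.0 and 86.1 CPM in the KO and 55.9, 53.0 and 53.4 CPM in the WT. Its KO 1 was level with the WT, and the difference did not pass (0.49 ± 0.18 SE, adjusted p = 0.091) except without KO 1 (0.66, adjusted p = 4.33e-05). Itgb3, the beta chain of a vitronectin and osteopontin receptor, was at 5.76, 27.9 and 28.5 CPM in KO 1, KO 2 and KO 3, against 45.0, 44.0 and 45.8 CPM in WT 4, WT 5 and WT 6. All KO values were lower, and KO 1 was the lowest (-1.12 ± 0.56 SE, adjusted p = 0.181). Without KO 1 it passed with a smaller change (-0.68, adjusted p = 6.74e-05). Itgb5, another partner of the alpha v chain, was highest in KO 1, at 308, 182 and 181 CPM in the KO and 162, 141 and 168 CPM in the WT (0.51 ± 0.23 SE, adjusted p = 0.151). Without KO 1 it was at 0.20, adjusted p = 0.0605. Itgb8, whose product with alpha v activates latent TGF-beta, was near the detection range, at 2.25, 2.07 and 1.60 CPM in the KO, against 3.75, 3.41 and 3.94 CPM in the WT (-0.90 ± 0.23 SE, adjusted p = 0.0332). The call of Itgb8 ended without any library other than KO 1 (adjusted p up to 0.127), rescaled by chromosome, and with the number after p in the titles as a covariate. Itga8, another RGD-binding chain and a marker of smooth muscle, was at 2.51, 0.613 and 0.745 CPM in the KO and 1.38, 5.02 and 1.58 CPM in the WT (-1.03 ± 0.77 SE, adjusted p = 0.346). KO 1 and WT 5 were the highest of their groups. Itga8 passed without KO 1 (-1.98, adjusted p = 0.0409) and with the last title number as a covariate (-1.07, adjusted p = 0.024), and was at -0.19, adjusted p = 0.874 without WT 5.

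Itgb1 (ENSMUSG00000025809, chromosome 8, 128685654 to 128733200, plus strand), the shared partner of most alpha chains here, was the most abundant of the 36 genes per length. It was at 1156, 1236 and 1204 CPM in the KO libraries, against 716, 785 and 748 CPM in the WT libraries. The groups were narrow and far apart, a rise of 0.68 ± 0.082 SE on the log2 scale, or 1.60-fold (adjusted p = 0.0043). Itga4, the receptor chain for VCAM-1 and fibronectin best known from leukocytes, was scarce but rose. It had 90, 78 and 84 reads in KO 1, KO 2 and KO 3, against 20, 5 and 15 reads in WT 4, WT 5 and WT 6 (2.74 ± 0.52 SE, adjusted p = 0.015). The call ended without KO 3 or WT 6 (adjusted p up to 0.0637). Itga9, its closest relative, was lower in each KO library, at 2.68, 0.943 and 1.17 CPM against 5.26, 3.49 and 4.68 CPM in the WT. It did not pass (-1.48 ± 0.45 SE, adjusted p = 0.0574), but passed without KO 1 (-2.09, adjusted p = 0.000719), in DESeq2, in limma-voom and in 3 further settings. Itgb2, the leukocyte beta chain, had 7, 50 and 42 reads in the KO and 72, 108 and 42 reads in the WT (-0.98 ± 0.74 SE, adjusted p = 0.355; -0.49 without KO 1), while Ptprc, Adgre1, Itgam and Tyrobp, which define leukocytes, had 0 reads in all 6 libraries. The 10 leukocyte markers summed to 22.4, 27.6 and 24.3 CPM in the KO and 73.6, 68.8 and 62.4 CPM in the WT (1 rose and 2 fell of 5 tested). Itgb6 and Itgb7, chains of epithelial and lymphocyte receptors, were not tested. Itgb6 had 4, 0 and 0 reads in the KO and 0, 0 and 0 in the WT, and Itgb7 6, 4 and 1 in the KO and 1, 5 and 3 in the WT.

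The authors' RPKM scale (reads per kilobase of exon per 1000000) sets genes of unequal length side by side. On it, the make-up of the receptor pool in these KO libraries was unlike that in these WT libraries. The 12 alpha chains summed to 84.0, 72.4 and 69.8 RPKM in the KO libraries, against 150.1, 157 and 151 RPKM in the WT libraries, a level 2.03 times as high in the WT. Laminin-binding chains (Itga3, Itga6 and Itga7) gave 34.5%, 10.6% and 9.99% of the alpha sum in KO 1, KO 2 and KO 3, against 49.0%, 50.5% and 47.3% in WT 4, WT 5 and WT 6. KO 1 had an intermediate share, most of it Itga3 (24.8 RPKM of 29.0). Collagen-binding chains summed to 12.4, 12.5 and 11.8 RPKM in the KO and 30.2, 31.6 and 31.9 RPKM in the WT. These sums were even across libraries of each genotype, but single chains were not. In KO 1, KO 2 and KO 3, Itga1 was at 5.49, 9.22 and 9.09 RPKM, Itga2 at 3.38, 1.38 and 0.970 and Itga11 at 3.26, 1.58 and 1.43. RGD-binding chains were at 42.0, 51.8 and 50.5 RPKM in the KO and 45.7, 45.7 and 47.3 RPKM in the WT, so that they made 49.9%, 71.5% and 72.3% of the alpha sum in the KO, against 30.4%, 29.1% and 31.2% in the WT. The 8 beta chains went the other way, with a sum of 376, 331 and 324 RPKM in the KO, against 251, 261 and 261 RPKM in the WT. Itgb1 made 75.2%, 84.0% and 83.8% of the beta sum in the KO and 70.2%, 73.0% and 70.5% in the WT. An exact two-sided permutation test gave p = 0.10 for the alpha, laminin-binding, collagen-binding and beta sums and p = 0.60 for the RGD-binding sum, where 0.10 is the smallest value 3 against 3 libraries allow. Any sum without overlap between genotypes gives that value, and the ligand classes were set after values were seen. The test therefore cannot decide whether these sums differ, and they are given as a description.

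**Figure D4:**
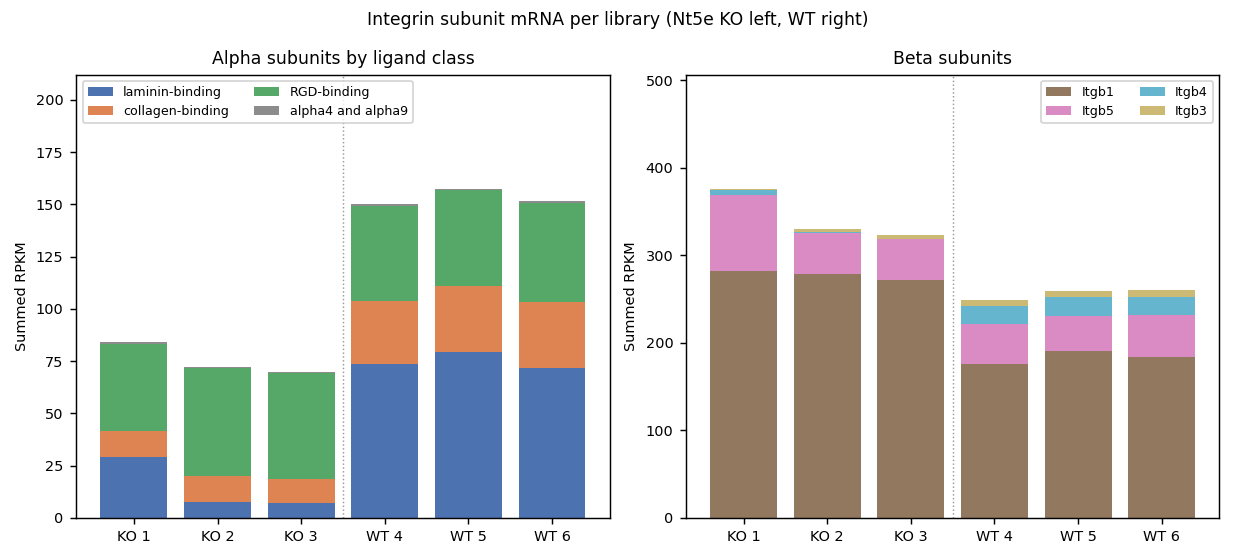
Summed RPKM of integrin alpha chains by ligand class (left) and of the 4 most abundant beta chains (right) in each library, KO left of WT. The alpha bars are 69.8 to 84.0 RPKM high in the KO and 150.1 to 157 in the WT, and the difference lies in the laminin- and collagen-binding parts.

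Intron reads gave a second readout of the same libraries, since they come mostly from unspliced RNA. Of the 36 genes, 28 had enough of them to be tested, and 6 were higher and 5 lower, against 4.98% higher and 7.03% lower among 10653 genes. Of the 16 genes that differed on exon reads and were tested here, 10 also differed on intron reads, and those 10 had the same direction. The matching share over all genes is not given here, so this overlap has no background beside it. Itga6 had 16, 44 and 28 intron reads in KO 1, KO 2 and KO 3, against 287, 277 and 281 in WT 4, WT 5 and WT 6, or -3.28 ± 0.25 SE (adjusted p = 0.00017) on the log2 scale. Itga7 had 27, 4 and 0 in the KO, against 242, 292 and 188 in the WT, or -4.49 ± 0.69 SE (adjusted p = 0.00449). The intron change of both was close in size to the exon change. Tns1 had 753, 578 and 558 intron reads in the KO, against 225, 248 and 238 in the WT, or 1.43 ± 0.20 SE (adjusted p = 0.00268). Vcl was at 1.01 ± 0.16 SE (adjusted p = 0.00501), Zyx at 1.09 ± 0.18 SE (adjusted p = 0.00556) and Itgb1 at 0.87 ± 0.18 SE (adjusted p = 0.0163) on intron reads. The other 6, Tln1, Tln2, Ilk, Parva, Pxn and Ptk2, had no intron call. Tln1 had 194, 165 and 131 intron reads in the KO and 160, 165 and 182 in the WT, or -0.035 ± 0.20 SE (adjusted p = 0.934), and Parva was at 0.12 ± 0.23 SE (adjusted p = 0.784). Whether the exon and intron changes of these genes differ was not tested. Fermt2 was the 1 gene called on intron reads alone, at 0.65 ± 0.15 SE (adjusted p = 0.0265).

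**Figure D5:**
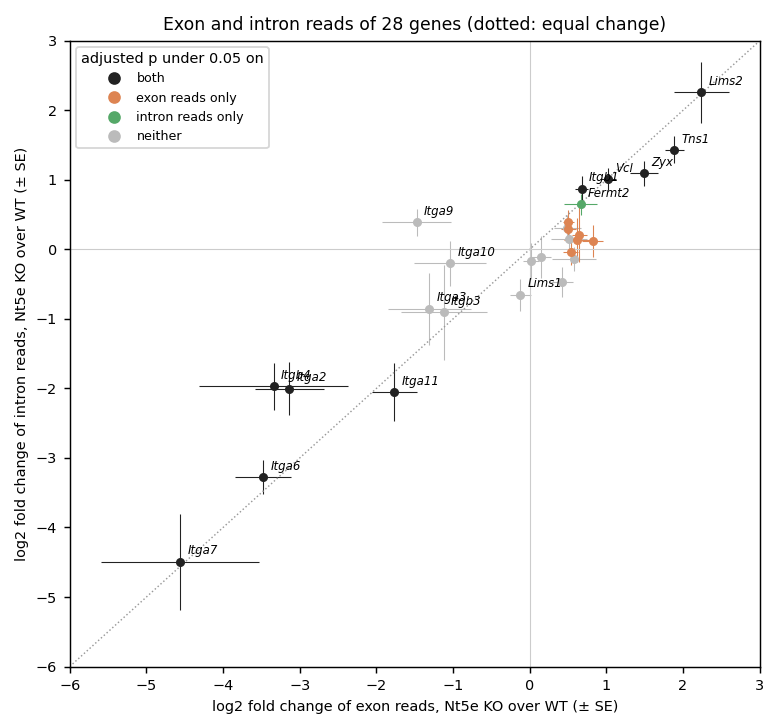
Log2 fold change, KO over WT, of exon reads (horizontal) and intron reads (vertical) with standard errors for 28 genes. Itga2, Itga6, Itga7, Itga11 and Itgb4, which fell, and Lims2, Tns1, Vcl, Zyx and Itgb1 passed on both. Of these, Itgb4 and Itga2 lie well above the dotted line of equal change, Tns1 and Zyx lie below it, and the others are nearer to it.

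Libraries of the KO differed in these genes by more than those of the WT. KO 1 was over 2-fold above the mean of KO 2 and KO 3 for 6 of the 33 genes, where 10.7% of all tested genes were, and over 2-fold below it for 5, where 6.31% were. WT 5 was over 2-fold from the mean of WT 4 and WT 6 for 3 of 33, where 3.72% of all genes were. The 6 were Itga2, Itga3, Itga7, Itga8, Itga9 and Itgb4, and the 5 were Itga6, Itgb2, Itgb3, Lims2 and Parvb. For 5 of the 6 chains called lower, all but Itga6, KO 1 lay between KO 2 and KO 3 and the WT, as it did for 8 of the 12 genes called higher. The matching share over all genes is not given here, so these counts have no background beside them. Among the 8, the log2 ratio of KO 1 to the mean of KO 2 and KO 3 ran from -0.042 for Vcl to -1.02 for Lims2. For Vcl the gap was thus small. Without KO 1, Vcl was at 1.03, Tns1 at 1.75, Zyx at 1.57 and Ptk2 at 0.52 on the log2 scale.

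Other genes of the adhesion pathway, 163 in 6 lists, were read from the same fit. These lists too were chosen with earlier results of these data known, so their shares beside those of all genes are descriptive. Of the 152 tested, 46 rose and 14 fell, which is 39.5% of them. Over all tested genes 27.8% passed, 14.1% higher and 13.7% lower. The median log2 fold change was 0.26 against 0.02 over all tested genes. In adhesion signalling, 12 rose and 4 fell of 35. Tgfb1i1, the paxillin relative Hic-5, was at 75.9 ± 20.7 CPM in the KO and 25.0 ± 3.36 CPM in the WT (mean ± SD, n = 3 each; log2 fold change 1.60 ± 0.23 SE, adjusted p = 0.00696), and Apbb1ip, the talin recruiter RIAM, rose too (0.73 ± 0.12 SE, adjusted p = 0.00947). Asap2, an ARF GTPase-activating protein, fell by 1.03 ± 0.13 and Grb2, a growth factor receptor adaptor, by 0.40 ± 0.069 on the log2 scale (adjusted p = 0.00483 and 0.0115). Among adaptors and actin linkers, 16 rose and 2 fell of 40. Tns2, tensin 2 (0.54 ± 0.062 SE, adjusted p = 0.00372), and Csrp2, a smooth muscle LIM protein (1.95 ± 0.23 SE, 0.00381), rose. Sorbs2, a vinculin-binding adaptor, was at 2.94, 0.566 and 0.638 CPM in the KO, against 48.4, 46.5 and 42.4 CPM in the WT (-5.02 ± 0.64 SE, adjusted p = 0.00493), and Enah, an actin elongation factor, fell as well (-1.26 ± 0.28 SE, adjusted p = 0.0241).

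Regulators of integrin traffic moved both ways, with 5 higher and 4 lower of 20, which is 45.0%, against 27.8% of all tested genes. Cav1 (1.51 ± 0.15 SE, adjusted p = 0.00262) and Cavin1 (0.91 ± 0.14 SE, 0.00814), which build caveolae, rose. Dab2, an endocytic adaptor for integrins, was at 147 ± 6.58 CPM in the KO and 456 ± 8.89 CPM in the WT (-1.63 ± 0.073 SE, adjusted p = 0.000336), and Sdc4, the fibronectin co-receptor syndecan 4, fell (-1.27 ± 0.14 SE, adjusted p = 0.00316). Among integrin ligands, 8 rose and 1 fell of 35, which is 25.7% of them, against 27.8% of all tested genes. Fbln5, a fibulin that binds integrins and elastin (1.44 ± 0.16 SE, adjusted p = 0.00341), and Lamb3, a laminin chain (4.41 ± 0.50 SE, 0.0036), rose. The fall was Spp1, osteopontin, at 6.97, 1.98 and 1.38 CPM in KO 1, KO 2 and KO 3, against 333, 2315 and 298 CPM in WT 4, WT 5 and WT 6, where WT 5 was far above the others (-8.14 ± 1.34 SE, adjusted p = 0.00985). Of the 6 integrin chains outside the 36 genes, 2 were tested and Itga2b, the platelet chain, fell (-0.98 ± 0.21 SE, adjusted p = 0.0223). The calls of Itga2b and Enah ended without any library other than KO 1 (adjusted p up to 0.0972 and 0.0825), that of Grb2 without KO 2 or WT 4 or WT 6 (up to 0.0626), and those of Apbb1ip and Cavin1 without WT 4 (0.0554 and 0.052). Leaving out single libraries moved the pathway count to between 14 and 87 higher and between 7 and 35 lower. In these fits 8.71% to 66.2% of all tested genes passed.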

How the data were processed

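Whole-number read counts per gene and library, made by the authors, were used as deposited: total exon reads (equal to the deposited expression value), unique exon reads and intron reads. RPKM values were deposited by the authors too and served only for levels between genes. The submitters' processing notes name GRCm38 (mm10) as build. For aligner, counter and strand setting, the entry is: not given in the sources used here. Per the labels' protocols, 1 ug of total RNA went into a stranded poly(A) kit. Of the 36 genes, 35 had the same coordinates in GENCODE M21, and 12 shared exon bases with another gene.

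Exon reads were tested on the whole table with edgeR 4.0.16 (R 4.3.3): filterByExpr with a minimum count of 10, TMM scaling, a quasi-likelihood fit on genotype alone, and p-values adjusted by Benjamini-Hochberg over all tested genes at 0.05. The standard error is the log2 fold change divided by the square root of F. Intron reads were tested likewise on their own. Log2 CPM used a prior count of 2. Depth was 19919095 to 23669252 exon reads per library, so genes of a few reads were not testable. Promoter stretches of 250 bases came from the RefSeq table (GRCm38).

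The 36 genes and the gene lists were chosen with earlier results of these data known, and the ligand classes of alpha chains were set after values were seen. Named genes were all 36, up to 2 rises and 2 falls of smallest p per pathway list (the genes of 1 list count in the pathway totals and are not reported here), the most abundant markers, and the 3 genes most like Vcl. Markers at or near 0 reads, Cnn1 and the ligands of the closing section were named after their values were seen. Endothelial markers (8 genes) summed to 2.60, 6.93 and 6.28 CPM in the KO and 1.96, 3.17 and 1.20 CPM in the WT, and Schwann cell markers (5) to 14.7, 21.9 and 18.8 CPM in the KO and 138, 132 and 145 CPM in the WT.

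Alternatives were DESeq2's size factors, scaling by totals, dropping the filter, requiring 50 reads in 3 libraries, unique reads, summed title stems, summed nearly identical pairs, each title number as a covariate, rescaling by chromosome, leaving out each library, limma-voom (limma 3.58.1) and DESeq2 1.42.0. On counts simulated for 12514 to 12527 genes with 200 changed in each of 3 runs, the test recovered 30.4% of changes of 2-fold and 79.1% of those of 4-fold for KO against WT. In the data 27.8% of tested genes passed, a far larger share than was changed in the simulation. These rates therefore do not give the recovery in the data. Plots used matplotlib 3.10.9.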

Additional observations from a re-analysis of the deposited data

How the results depend on the processing

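Over 33 genes and 18 alternatives, 501 of 591 log2 fold changes kept their direction and their side of the threshold, 58 lost a call, 25 gained one and 7 changed sign. The sign changes were Itgav, at -0.085 with total counts, -0.028 with the nearly identical pairs summed, -0.056 with the number after p as covariate, and -0.051, -0.019 and -0.0052 without KO 2, KO 3 and WT 4, and Lims1, at 0.0040 without KO 1. Leaving out 1 library gave -0.051 to 0.11 for Itgav and -0.20 to 0.0040 for Lims1. Neither gene was called in any of these. With the pairs summed, 0 genes passed in each direction among the 36 (0 in all) and 0 and 0 among pathway genes (edgeR; 30 higher and 12 lower at an unadjusted p under 0.05), and Nt5e was at -5.81 (adjusted p = 0.133); that setting leaves 2 samples a genotype. Leaving out 1 library gave 9 to 27 of the 36 genes (6 to 17 higher, 3 to 10 lower), 14 to 87 pathway genes higher and 7 to 35 lower, and -8.34 to -5.55 for Nt5e. Of all tested genes, 8.71% to 66.2% passed there. The replicate numbers of the labels, 1 to 6, are not shared between genotypes. With total counts, 40.1% of all called genes were higher, against 50.7%. Genes of a few reads, such as Itgb6, Itgb7 and Fermt1, could not be compared at this depth. The cause of the changes between settings was not tested.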

Other observations

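Among genes of integrin ligands, the KO libraries were far less alike than for most genes. KO 1 was over 2-fold above the mean of KO 2 and KO 3 for 7 of the 35 tested ligand genes, where 10.7% of all tested genes were, and over 2-fold below it for 12, where 6.31% were. The genes named here were picked after their values were seen. Icam1, the ligand of leukocyte beta 2 integrins, had 5199, 32 and 21 exon reads in KO 1, KO 2 and KO 3, against 2830, 2429 and 2487 in WT 4, WT 5 and WT 6. Col3a1, a fibrillar collagen chain bound by collagen receptors, went the other way, with 3717, 132486 and 137042 reads in the KO and 21058, 18340 and 21684 in the WT. Ccn3, a matricellular integrin ligand, had 1247, 23173 and 21570 reads in the KO and 6656, 3043 and 5994 in the WT. Of the laminin chains, Lama1 had 181, 1 and 3 reads in the KO and 78, 50 and 64 in the WT, and Lama3 had 52, 0 and 1 in the KO and 23, 163 and 30 in the WT. For Icam1, Col3a1, Ccn3 and Lama1, KO 1 and the other KO libraries lay on different sides of the WT range. None of these 5 genes passed the genotype test (adjusted p from 0.178 to 0.976). A difference of 1 library from 2 others has no replicate check.

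Fermt1, the epithelial kindlin, had too few exon reads for a test, yet its intron reads numbered 0, 0 and 0 in KO 1, KO 2 and KO 3 and 6, 12 and 14 in WT 4, WT 5 and WT 6. Those counts were below the filter and were not tested.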
